A study of Homo sapiens with 4 samples.

Results

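BTB zinc finger genes encode transcription factors that carry an amino-terminal BTB (or POZ) domain and, towards the carboxyl terminus, zinc fingers that bind DNA. They were taken here by gene symbol: every ZBTB-numbered gene together with BCL6, BCL6B, HIC1, HIC2, PATZ1, BACH2 and MYNN. This gave 48 of 34484 gene symbols, and 43 of the 48 had 40 or more reads over the 4 libraries and were tested. The cells were A549, a widely used human line grown from a lung adenocarcinoma. The dex group received 100 nM dexamethasone, a synthetic glucocorticoid, for 3 h, and the etoh group received 0.02% ethanol as vehicle for 3 h, with 2 libraries in each group. RNA was sequenced from both, and the comparison asks which of these factors differed in transcript abundance after hormone.

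The BTB domain forms dimers and offers a surface for corepressors such as BCOR and NCOR1, so that most members studied act as sequence-specific repressors. Some members bind the ubiquitin ligase scaffold CUL3 through the same domain. The family is best known in blood cells, where single members direct lineage choice. The steroid-bound glucocorticoid receptor is itself a ligand-dependent transcription factor, and whether it acts on these genes directly was not tested. BACH2 has a BTB domain but binds DNA through a basic leucine zipper in place of zinc fingers, and it is kept because the selection names it.

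Aligned reads numbered 9828448 and 11138944 in dex and 9764159 and 11887526 in etoh. The glucocorticoid-induced genes FKBP5 and TSC22D3 were higher in both dex libraries, with FKBP5 at 232 and 229 CPM (reads per 1000000 aligned reads) in dex and 22.1 and 22.6 CPM in etoh. Epithelial markers were present, and their summed level was 7359 to 8522 CPM in dex and 4244 to 4917 CPM in etoh. KRT7, KRT8 and KRT18 were called higher in dex and made up most of that sum. EPCAM, CDH1 and KRT19 were not called, at log2 fold changes of -0.22, 0.15 and 0.07. Of 8 blood and immune markers, CD3D, CD3E and MS4A1 had 0 reads in every library. The summed level of the list was 2.51 to 3.46 CPM in dex and 1.95 to 2.36 CPM in etoh. CD14 made up most of that sum, at 2.95 and 1.80 CPM in dex and 1.64 and 2.02 CPM in etoh. It was the only marker of this list with enough reads to be tested, and it was not called. Of 4 fibroblast markers only COL1A1 had enough reads to be tested. It was called higher in dex, but another test, DESeq2, did not call it. The list summed to 17.2 to 21.9 CPM in dex and 11.5 to 16.0 CPM in etoh. COL1A1 alone had 16.7 and 21.3 CPM in dex and 10.4 and 15.4 CPM in etoh. Endothelial markers summed to at most 0.509 CPM in dex and 0.307 CPM in etoh, and VWF was at 0. The part of these marker differences in the results below was not tested. In bulk RNA, fewer cells with a transcript and less of it per cell cannot be told apart.

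Of the 43 tested members, 5 were called higher in dex, 2 were called lower and 36 were not called. The 5 were ZBTB20, ZBTB7B, ZBTB10, ZBTB7A and ZBTB38, and the 2 were ZBTB18 and ZBTB5. A gene was called where the quasi-likelihood p of edgeR, adjusted over 14576 genes by the method of Benjamini and Hochberg, was below 0.05. The 7 called members were 16.3% of the 43 tested, and over all genes tested 11.4% were called, 6.95% higher and 4.49% lower. The median log2 fold change was -0.03 over the members and 0.00 over all genes tested. Summed over all 48 members, the level was 1229 and 1337 CPM in dex and 1279 and 1270 CPM in etoh, so the etoh libraries lay between the dex libraries. Without dex replicate 1, 3 members were called higher and 1 lower, and without etoh replicate 2, 3 were called higher. DESeq2 called 3 higher and 2 lower.

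**Figure D1:**
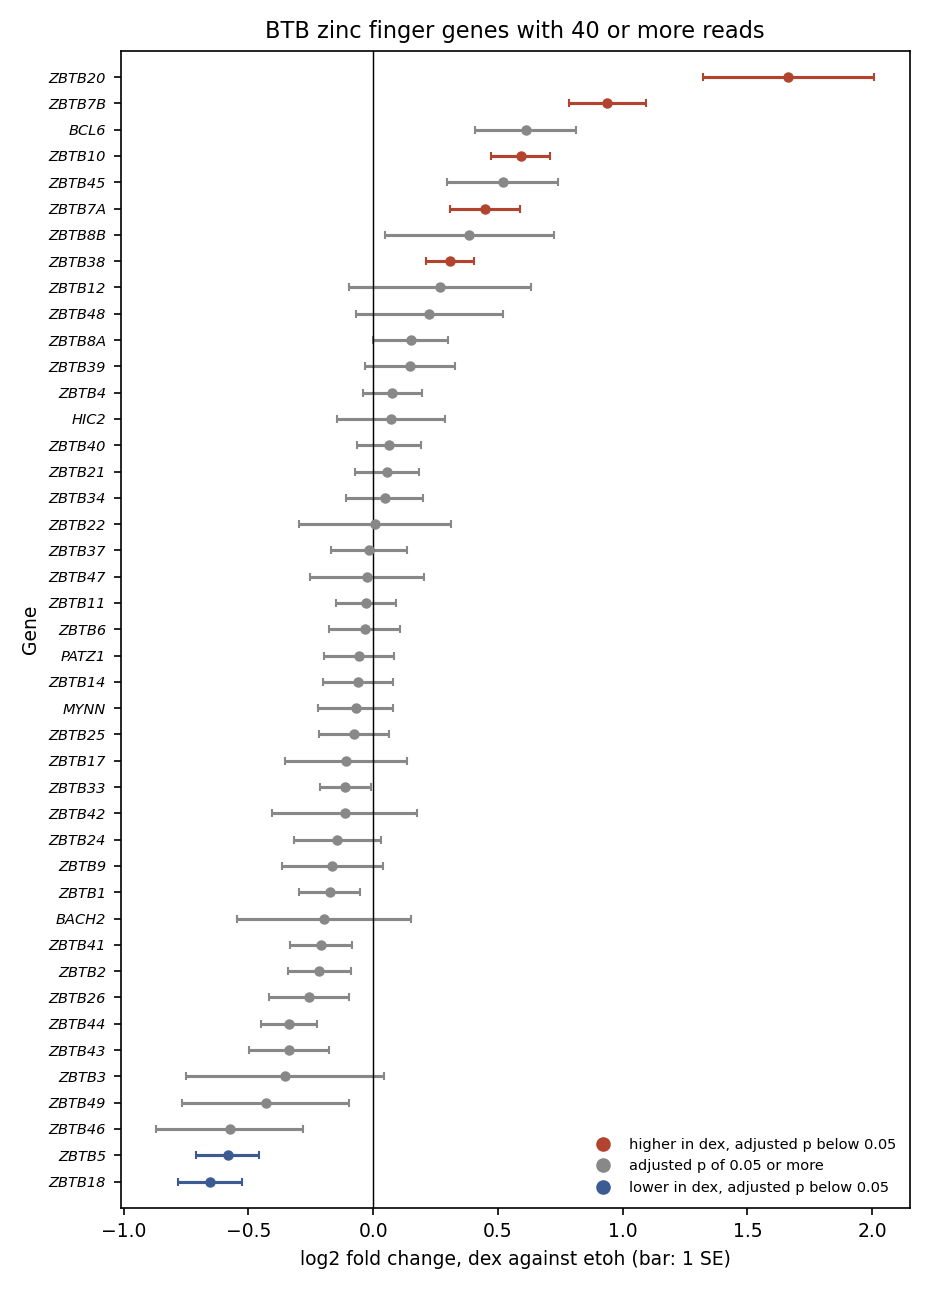
Log2 fold change of dex against etoh for the 43 tested BTB zinc finger genes, with bars of 1 SE and colours by call. ZBTB20 stands highest at 1.66 and ZBTB18 lowest at -0.65, and most members lie near 0.

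The promoter windows of the members with the clearest differences are shown so that the letters of a glucocorticoid response element can be read beside the direction of change. Each line gives the 250 bases before a RefSeq transcription start in GRCh38.p14, 5′ to 3′ on the gene's strand, with capitals for ACANNNTGT, the 9 central letters of the element. ZBTB7B and ZBTB20 were called higher in dex, and ZBTB18 and ZBTB5 were called lower. The ZBTB7B window is chr1:155002399-155002648 on the plus strand, the ZBTB20 window chr3:114759108-114759357 on the minus strand, the ZBTB18 window chr1:244051033-244051282 on the plus strand and the ZBTB5 window chr9:37465451-37465700 on the minus strand.
ZBTB7B: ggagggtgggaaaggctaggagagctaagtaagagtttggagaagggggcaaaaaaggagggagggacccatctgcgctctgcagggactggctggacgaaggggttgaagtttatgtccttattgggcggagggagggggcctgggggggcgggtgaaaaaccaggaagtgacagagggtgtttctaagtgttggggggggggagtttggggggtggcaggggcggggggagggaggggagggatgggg
ZBTB20: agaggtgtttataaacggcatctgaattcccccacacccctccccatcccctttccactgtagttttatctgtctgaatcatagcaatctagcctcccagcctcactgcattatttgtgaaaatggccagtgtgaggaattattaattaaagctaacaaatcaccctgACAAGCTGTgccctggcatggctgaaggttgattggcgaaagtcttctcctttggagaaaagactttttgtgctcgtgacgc
ZBTB18: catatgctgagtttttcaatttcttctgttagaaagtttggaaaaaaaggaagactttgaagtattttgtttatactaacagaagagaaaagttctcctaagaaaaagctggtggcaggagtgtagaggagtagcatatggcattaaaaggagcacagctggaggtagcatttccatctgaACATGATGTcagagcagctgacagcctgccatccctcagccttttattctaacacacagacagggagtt
ZBTB5: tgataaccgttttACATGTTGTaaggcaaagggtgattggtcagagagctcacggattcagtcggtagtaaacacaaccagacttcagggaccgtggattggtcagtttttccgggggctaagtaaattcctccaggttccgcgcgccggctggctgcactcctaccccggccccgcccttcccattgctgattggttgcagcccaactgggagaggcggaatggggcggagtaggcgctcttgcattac
In the windows shown, the 9 letters begin 82 bases before the start in ZBTB20, 69 bases before it in ZBTB18 and 237 bases before it in ZBTB5, and ZBTB7B has no match. ZBTB20 has 8 RefSeq windows and ZBTB18 has 3, and in each gene 1 window held the match, which is the window shown. A window with a match was put first, so those printed for ZBTB20 and ZBTB18 were chosen for it. Which start these cells used was not tested.

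RefSeq windows of 300 bases (250 before to 50 after a start) were found for 39 of the 48 members, and those without one were PATZ1, HIC1, ZBTB10, ZBTB6, ZBTB16, ZBTB17, ZBTB40, ZBTB41 and BCL6B. A longer form adds GN before these letters and NC after them, to 13 letters. Both forms read the same on either strand. The longer one was in 137 of 35116 windows of all genes, which is 0.390%, and among the members it was in MYNN, an uncalled gene that encodes myoneurin. The 31 bases printed lie at chr3:169773262-169773292 on the plus strand, and the 13 letters within them, in capitals, begin 125 bases before the start.
MYNN: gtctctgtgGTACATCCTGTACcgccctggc
The 9-letter form lies inside the 13-letter one, so that every match of the longer form is also one of the shorter, and it was chosen after the members' values were seen. It was in 5.37% of all windows and 6.76% of the 74 windows of the members. By gene, 3 of 6 called members with a window had a match (ZBTB20, ZBTB18 and ZBTB5) and 2 of the 33 other members with a window did (MYNN and ZBTB14). That is 12.8% of the 39 members, beside 6.54% of 27305 genes with a window, and the difference between called and other members was not tested. A match is a string of letters and not a measured binding site, and genes with more windows had more chances of one.

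Levels between members were compared per length, as reads per kilobase of transcript per 1000000 aligned reads, summed over the transcripts of a gene. ZBTB38, a zinc finger protein that binds methylated DNA, was the most abundant member, at 92.1 ± 2.97 in dex and 75.6 ± 3.93 in etoh (SD, n = 2 each). ZBTB33 (Kaiso) followed at 22.0 ± 0.173 in dex and 24.3 ± 1.26 in etoh, and ZBTB1 was at 22.4 ± 3.82 in dex and 23.5 ± 4.35 in etoh. ZBTB33 and ZBTB1 did not differ beyond their spread in either group, and ZBTB44 had the next mean at 15.0 ± 1.52 in dex and 19.5 ± 1.33 in etoh. In etoh ZBTB44 did not differ from ZBTB1 beyond the spread: in etoh replicate 2 ZBTB44 was at 20.5 and ZBTB1 at 20.4. ZBTB7B moved in this order, standing ninth of 48 in dex and 21st in etoh on the same scale. ZBTB18 moved the other way, standing 12th in dex and sixth in etoh.

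**Figure D2:**
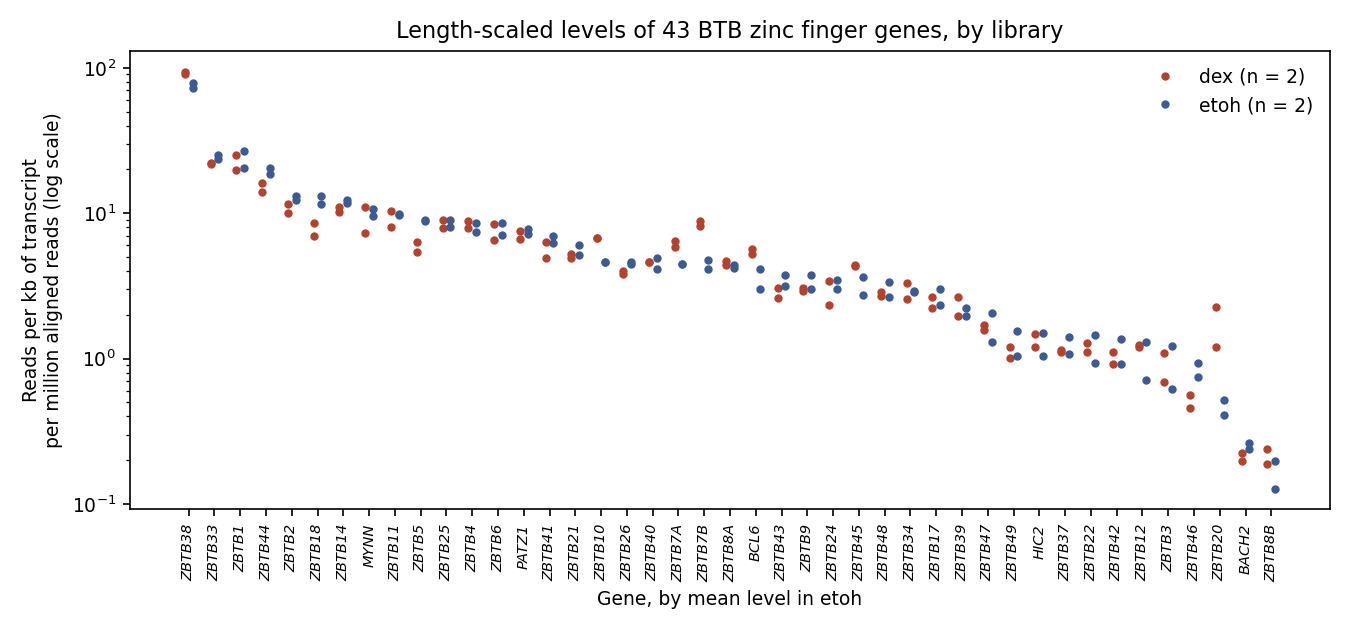
Reads per kilobase of transcript per 1000000 aligned reads on a log scale for each library, for the 43 tested genes ordered by their mean in etoh. ZBTB38 lies apart at the top in both groups, and BACH2 and ZBTB8B lie lowest.

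At the other end, 5 members stayed under 40 reads over the 4 libraries and were not tested. ZBTB16 encodes PLZF and is known as a glucocorticoid-induced gene in other tissues. It had 3 and 1 reads in dex and 0 in each etoh library. A count of 3 was taken as the floor of a single library. HIC1, a tumour suppressor often silenced by methylation, had 3 and 1 reads in dex and 3 and 4 in etoh. ZBTB32, a repressor of T cell cytokine genes, had 1 and 5 reads in dex and 2 and 4 in etoh. ZBTB7C had 9 and 6 reads in dex and 6 and 4 in etoh, which is 25 in all and the most of the 5. BCL6B, a close relative of BCL6, had 1 read in all, in etoh. The tested member with the fewest reads was ZBTB3 with 70 reads. With no count filter all 48 members were tested, and none of these 5 was called. Small differences in them were not resolved at this depth.

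Among the 13 regulators of blood and immune cells, 10 were tested and 3 were called, each of them higher in dex, beside 6.95% of all genes tested that were called higher. ZBTB7B encodes ThPOK, which commits T cells to the CD4 helper lineage. It had 22.6 and 24.8 CPM in dex, from 222 and 276 reads, and 11.7 and 13.3 CPM in etoh, from 114 and 158 reads. Both dex libraries stood well above both etoh libraries. Its log2 fold change was 0.94 (SE 0.15), which is 1.92-fold, with an adjusted p of 0.00012 by edgeR. All 4 of its transcripts with 40 or more reads had a ratio above 0 on the log2 scale, between 0.71 and 1.17. The gene, ENSG00000160685.9, lies on chromosome 1 from 155002630 to 155018522 in GRCh38.

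ZBTB7A encodes LRF, the nearest relative of ThPOK, which represses fetal globin genes in red cells. It had 30.0 and 26.6 CPM in dex and 21.0 and 20.9 CPM in etoh, and the groups did not overlap. Its log2 fold change was 0.45 (SE 0.14, adjusted p = 0.037 by edgeR). The call was lost with DESeq2. It was also lost when dex replicate 1 (0.36), etoh replicate 1 (0.47) or etoh replicate 2 (0.43) was left out. The sequences counted for ZBTB7A and ZBTB7B share no stretch of 50 bases with any other gene model of GENCODE 29.

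ZBTB20 encodes a repressor of alpha-fetoprotein in liver that also acts in hippocampal neurons. It had 47 and 38 reads in dex and 13 and 15 in etoh, or 4.78 and 3.41 CPM in dex and 1.33 and 1.26 CPM in etoh. Both dex libraries stood above both etoh libraries, and the dex libraries also differed from each other more than the etoh libraries did. The log2 fold change of 1.66 (SE 0.34, adjusted p = 0.0016 by edgeR) was the largest of any tested member, from the fewest reads of any called one. Its 113 reads lay on 9 transcripts, of which the leading one held 25.7%, and no transcript reached 40 reads. Of the 50-base stretches of its counted transcripts, 53.3% also occur in other gene models of GENCODE 29, foremost the overlapping model AC093010.3 on the same strand, so the origin of some of its reads is uncertain. AFP, which ZBTB20 is known to repress, had 22 and 24 reads in dex and 18 and 21 in etoh and was not called. AFP was picked out here after its values were seen.

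BCL6, the repressor that sets the germinal centre programme of B cells, did not pass. It had 9.77 and 11.8 CPM in dex and 7.99 and 6.39 CPM in etoh, so that its groups did not overlap. Its log2 fold change was 0.61 (SE 0.20, adjusted p = 0.054 by edgeR), and it passed without etoh replicate 1, at 0.79. Leaving out etoh replicate 2 gave 0.44, dex replicate 2 gave 0.48 and dex replicate 1 gave 0.73, and none of these 3 passed. The 4 transcripts of BCL6 with 40 or more reads had log2 ratios between 0.42 and 0.84. BCL6-003, whose annotated reading frame is short, held 31.3% of the gene's reads in dex and 30.5% in etoh.

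The other tested regulators of blood and immune cells were not called. ZBTB46, known as a marker of classical dendritic cells, had 2.34 and 2.87 CPM in dex and 3.48 and 4.37 CPM in etoh, a log2 fold change of -0.57 (SE 0.29, adjusted p = 0.25 by edgeR). ZBTB1, needed for lymphocyte development, had 56.3 and 67.0 CPM in dex and 77.7 and 63.3 CPM in etoh, and its groups overlapped. ZBTB24, which is mutated in an immunodeficiency with unstable centromeres, had 12.8 and 18.9 CPM in dex and 19.0 and 16.7 CPM in etoh. ZBTB25 had 24.0 and 31.7 CPM in dex and 28.4 and 31.1 CPM in etoh, and the groups of ZBTB24, ZBTB25 and PATZ1 overlapped. BACH2, a regulator of B and T cells, had 20 reads in each dex library and 22 and 26 in etoh. ZBTB1 and ZBTB25 overlap each other on opposite strands by up to 373 bases in GENCODE 29, so their reads cannot be told apart there.

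**Figure D3:**
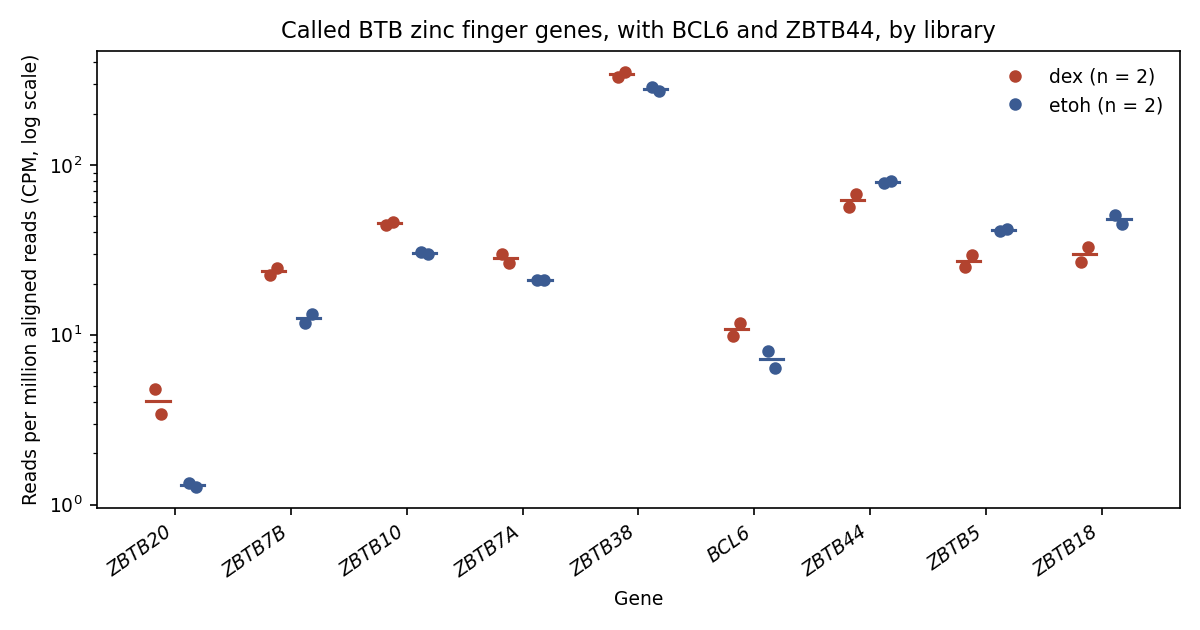
Reads per 1000000 aligned reads on a log scale in each of 2 dex and 2 etoh libraries, with lines at the group means, for the 7 called genes, BCL6 and ZBTB44. The dex and etoh points of each gene shown do not overlap.

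All 3 readers of methylated DNA were tested, and ZBTB38 was called higher, beside 6.95% of all genes tested that were called higher. ZBTB38 had 329 and 354 CPM in dex and 287 and 272 CPM in etoh, from 7174 reads in dex and 6030 in etoh. Both dex libraries stood above both etoh libraries, and the log2 fold change was 0.31 (SE 0.10, adjusted p = 0.038 by edgeR). This was the smallest change among the called members, in the member with the most reads. The call was lost without any 1 of the 4 libraries, with values of 0.26 to 0.37, and with DESeq2. The 13 counted transcripts shared the reads unequally: ZBTB38-001 held 67.9% of the gene's reads in dex and 68.8% in etoh, and its log2 ratio was 0.28 with a 95% counting interval of 0.22 to 0.34. Of its 11 transcripts with 40 or more reads, 9 had a ratio above 0 and 2 below, the lowest being ZBTB38-016 at -0.37 with an interval of -1.03 to 0.28.

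Its relatives ZBTB33 and ZBTB4 were not called. ZBTB33 had 101 and 103 CPM in dex and 109 and 114 CPM in etoh, which did not overlap. ZBTB4 had 51.7 and 46.4 CPM in dex and 43.6 and 50.4 CPM in etoh, with 1025 reads in each group.

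Of the 5 members linked to the cell cycle, p53 or MYC, 4 were tested and 1, ZBTB5, was called lower. Over all genes tested 4.49% were called lower. ZBTB5 is known to repress the cell cycle inhibitor gene CDKN1A. It had 24.9 and 29.5 CPM in dex and 40.9 and 41.8 CPM in etoh, on a single counted transcript. Both dex libraries lay below both etoh libraries. The log2 fold change was -0.58 (SE 0.13, adjusted p = 0.0026 by edgeR), and without dex replicate 1 it was -0.47 with an adjusted p of 0.051 by the same test. CDKN1A itself had 162 and 157 CPM in dex and 58.5 and 74.1 CPM in etoh and was called higher. The list of described targets held CDKN1A under BCL6 and ZBTB17 and not under ZBTB5. A link between the changes of ZBTB5 and CDKN1A was not tested. ZBTB2, another repressor of the p53 pathway, had 36.0 and 31.1 CPM in dex and 37.9 and 40.8 CPM in etoh and was not called. ZBTB17 (Miz-1), the partner through which MYC represses genes, had 5.90 and 4.58 CPM in dex and 4.92 and 6.39 CPM in etoh, and HIC2, the paralogue of HIC1, had 175 reads in each group.

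Of 2 telomere-binding members, ZBTB10 was called higher and ZBTB48 was not, beside 6.95% of all genes tested that were called higher. ZBTB10, which binds variant telomere repeats and is known as a repressor of SP1 family genes, had 44.2 and 46.3 CPM in dex and 30.8 and 30.0 CPM in etoh. The spread within each group was small beside the gap between them. Its log2 fold change was 0.59 (SE 0.12), which is 1.51-fold, with an adjusted p of 0.0013 by edgeR. All 4 transcripts with 40 or more reads had ratios above 0, between 0.41 and 0.71. ZBTB10-001, of 10132 bases, held 57.4% of the gene's reads in dex and 56.2% in etoh. Of the gene's 50-base stretches, 4.90% also occur in other gene models, foremost the antisense model AC009812.1. ZBTB48 (TZAP), which trims long telomeres, had 35 and 38 reads in dex and 34 and 31 in etoh.

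The remaining 25 members are less described, and 24 of them were tested. ZBTB18 was the 1 called, at 4.17% of the 24 beside 11.4% of all genes tested, and it was lower in dex. It encodes RP58, a repressor needed for neurons of the developing cortex. It had 26.9 and 32.9 CPM in dex and 50.9 and 44.6 CPM in etoh, from 264 and 367 reads in dex and 497 and 530 reads in etoh on a single transcript. Both dex libraries lay below both etoh libraries, and the dex libraries differed from each other by about as much as the etoh libraries did. The log2 fold change was -0.65 (SE 0.13, adjusted p = 0.0011 by edgeR), so that etoh had 1.57-fold the level of dex. ZBTB18, ENSG00000179456.9, lies on chromosome 1 from 244048939 to 244057476 and ZBTB5, ENSG00000168795.4, on chromosome 9 from 37438114 to 37465399, both in GRCh38.

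ZBTB44 came nearest to a call among the rest. It had 56.5 and 67.5 CPM in dex and 77.9 and 80.6 CPM in etoh, which did not overlap. Its log2 fold change was -0.34 (SE 0.11, adjusted p = 0.056 by edgeR), and it passed without dex replicate 2, at -0.46. It did not pass without dex replicate 1, at -0.22, or without etoh replicate 1 or 2, at -0.34 and -0.32. Of its 7 transcripts with 40 or more reads, 6 had ratios below 0 and ZBTB44-004 was at 0.03.

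ZBTB45 had 7.63 and 7.36 CPM in dex and 4.81 and 5.72 CPM in etoh, a log2 fold change of 0.52 (SE 0.22) that did not pass. ZBTB43 had 13.1 and 14.5 CPM in dex and 18.9 and 16.6 CPM in etoh, at -0.34 (SE 0.16), and it did not pass either; without etoh replicate 1 it was at -0.22. ZBTB49 at -0.43 (SE 0.34), ZBTB3 at -0.35 (SE 0.40) and ZBTB8B at 0.38 (SE 0.34) had 104, 70 and 103 reads in all and SEs about as large as the values. Leaving out 1 library moved ZBTB49 between -0.64 and -0.13 (the value nearer 0 without etoh replicate 2), ZBTB3 between -0.83 (without dex replicate 2) and -0.03 (without dex replicate 1), and ZBTB8B between 0.15 (without etoh replicate 1) and 0.73 (without etoh replicate 2). The members with an absolute log2 fold change under 0.3 were 28 of the 43, with values of -0.26 to 0.27, 10 above and 18 below 0.

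Of the 43 tested members, 18 had CPM values that did not overlap between dex and etoh, 7 with dex above and 11 with dex below. That is 41.9% of the members, and over all genes tested 53.4% did not overlap.

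**Figure D4:**
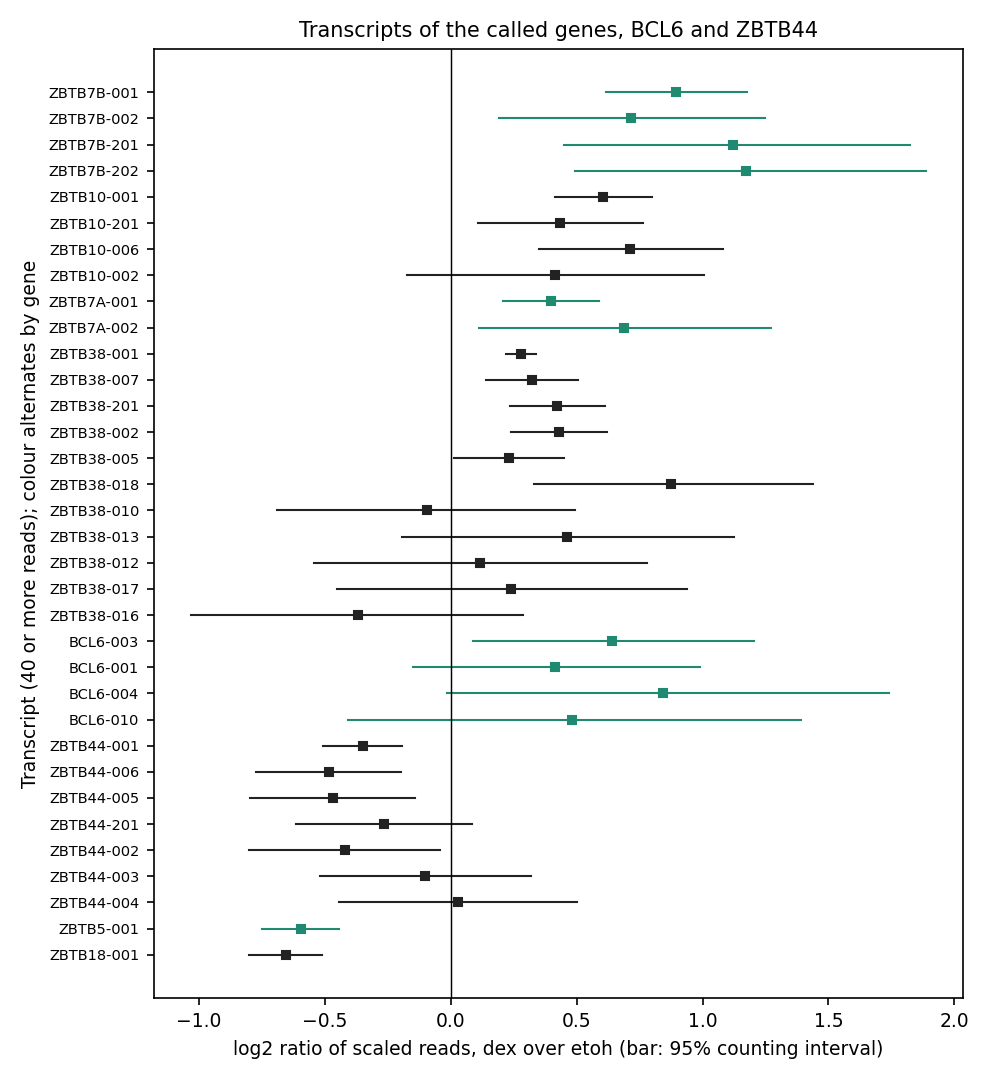
Log2 ratio of scaled reads, dex over etoh, for each transcript with 40 or more reads of the called genes, BCL6 and ZBTB44, with 95% counting intervals. The transcripts of ZBTB7B lie between 0.71 and 1.17 and those of ZBTB10 between 0.41 and 0.71, and ZBTB20 has no transcript with 40 reads.

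Transcripts of some proteins that bind BTB domains were called too. Of 27 corepressor and ubiquitin ligase partners, all tested, 5 were called, each higher in dex, beside 6.95% of all genes tested that were called higher, and their median log2 fold change was 0.04. With limma-voom 5 were called and with DESeq2 2. BCOR, a corepressor bound by the BTB domain of BCL6, had 79.8 and 71.9 CPM in dex and 47.0 and 49.7 CPM in etoh, a log2 fold change of 0.67 (SE 0.11, adjusted p = 0.00017 by edgeR). BCORL1, at 0.50 (SE 0.16), and the deacetylase HDAC7, at 0.40 (SE 0.12), passed as well. BCORL1 did not pass without dex replicate 1, at 0.30, or without etoh replicate 1, at 0.39, and HDAC7 did not pass without any 1 of the 4 libraries, at 0.36 to 0.45. Neither passed with DESeq2. GPS2, a subunit of the NCOR complex, had 135 and 78.7 CPM in dex and 60.9 and 82.3 CPM in etoh. Its groups overlapped although it was called at 0.59 (SE 0.17), and it was at 0.15 without dex replicate 1 and at 0.41 without etoh replicate 1, neither of which passed, nor did it pass with DESeq2. Without dex replicate 2 it was at 0.94. NCOR1, a corepressor of nuclear receptors, had 239 and 242 CPM in dex and 214 and 203 CPM in etoh and was not called (adjusted p = 0.16 by edgeR). CTBP2, another corepressor, had 184 and 177 CPM in dex and 141 and 157 CPM in etoh (adjusted p = 0.060 by edgeR).

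BTB genes under other symbols gave no call in the same test. Of 10 tested, edgeR called 0 and put 2 (NACC2, and BACH1, which is named after its values were seen) under 0.05 before adjustment, while 0 were called by limma-voom or by DESeq2. Among all genes tested 11.4% were called and 3428 of 14576 were under 0.05 before adjustment, so a list of this size stood near that background. NACC2, a BTB corepressor without zinc fingers, had 131 and 116 CPM in dex and 98.9 and 105 CPM in etoh (adjusted p = 0.067 by edgeR). SPOP, a substrate adaptor of CUL3, had 50.2 and 54.2 CPM in dex and 50.3 and 52.7 CPM in etoh, and its groups overlapped.

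Genes described elsewhere as targets of members were called in both directions. Of 20 tested, 4 were called higher and 3 lower, beside 6.95% higher and 4.49% lower among all genes tested, with a median log2 fold change of -0.03. ACKR3, a chemokine scavenger receptor described as a HIC1 target, had 13.6 and 18.7 CPM in dex and 31.7 and 36.9 CPM in etoh, a log2 fold change of -1.07 (SE 0.15). SIRT1, a deacetylase also described as a HIC1 target, was at -0.47 (SE 0.12), and it did not pass without dex replicate 1, at -0.39, or without etoh replicate 1, at -0.32. HIC1 itself had 4 reads in dex and 7 in etoh. Among the targets described for BCL6, BCL2L1, a survival factor, was at 0.38 (SE 0.11) and CCL2, a chemokine, at -1.87 (SE 0.19). BCL2L1 did not pass without dex replicate 1, at 0.26, etoh replicate 1, at 0.38, or etoh replicate 2, at 0.39. CCND1, cyclin D1, is described as a HIC1 target and was at 0.34 (SE 0.10). CCND1 did not pass without dex replicate 1, at 0.37, dex replicate 2, at 0.31, or etoh replicate 2, at 0.28. CDKN1A, described for BCL6 and ZBTB17, and CDKN1C, described for HIC1, were also called higher. MYC had 177 and 190 CPM in dex and 169 and 196 CPM in etoh, its groups overlapped, and it was not called.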

How the data were processed

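RNA-seq was analysed from 2 dex and 2 etoh libraries of A549 cells, grouped by the labels' titles. The authors deposited raw counts of aligned reads per transcript with each transcript's length. The tools named are Bowtie, CASAVA, DESeq2 and SAMtools, per the submitters' processing notes. Aligner settings, build, annotation and strand were not given in the sources used here. The unnamed row of unaligned reads, 17.2% to 18.7% of each library, was kept out.

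Reads were summed over the transcripts of a gene symbol, and CPM is per 1000000 aligned reads. Genes with 40 or more reads over the 4 libraries entered edgeR 4.0.16, run in R 4.3.3 (TMM factors, quasi-likelihood test, two-sided, adjusted p threshold 0.05). The SE is the absolute log2 fold change over the square root of F. No label says that the libraries are separate cultures. The p-values then reflect the spread among these libraries, which may be technical. Counting intervals are exact binomial at 95% on the summed reads of each group, with no floor, and they cover counting error only. The code was tested on simulated data. Positions and shared 50-base stretches came from GENCODE 29 on GRCh38, and promoter sequences from RefSeq on GRCh38.p14.

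Every member could be named, with full statistics for called ones; of the related lists, called genes and the 3 uncalled genes with the highest mean CPM could be named, except that some items are not reported here. Members, lists and roles were chosen with earlier results of these data known. The alternatives were other scalings, filters, tests (DESeq2 1.42.0, limma-voom in limma 3.58.1), the replicate number as a block, the largest transcript in place of the sum, an adjusted p of 0.01 and each library left out.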

Additional observations from a re-analysis of the deposited data

How the results depend on the processing

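Of the 7 called members, ZBTB7B, ZBTB10 and ZBTB18 passed under all 16 alternatives, and ZBTB20 under all 15 in which it could be tested, since its largest transcript has too few reads. The number of members called higher was 3 with DESeq2, with the replicate number as a block, with an adjusted p of 0.01 and with the largest transcript in place of the sum, against 5. The calls lost were ZBTB7A and ZBTB38, except with the largest transcript, where ZBTB38 was lost and ZBTB20 was not tested. Leaving out 1 library each gave 3 to 4 members higher and 1 to 3 lower, and 1038 to 1840 genes called in all, against 1668. DESeq2 called 1043 genes and an adjusted p of 0.01 left 1004. No label says whether same-numbered libraries belong together. Their deviations correlated at -0.27 over 9451 genes, and the block gave 1519 genes, with 3 members higher and 2 lower. Unaligned reads were 17.2% in dex replicate 1 and etoh replicate 2, 18.7% in dex replicate 2 and 18.5% in etoh replicate 1. Crossed pairs, added after the data were seen, gave 2833 genes, with 6 members higher and 3 lower. BCL6 passed under 4 of 16 alternatives and ZBTB44 under 5. No fold change printed above for a member, a corepressor or a target changed sign under any alternative run. Of the 28 members with an absolute log2 fold change under 0.3, 21 changed sign under at least 1 alternative and 0 were called under any, so their direction is not resolved at this depth.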
